A study of Mus musculus with 3 samples.

Results

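The genes of the cytosolic ribosomal proteins were followed in endothelial cells (ECs) of mouse lungs after an injection of melanoma cells. Members were chosen by symbol: every gene whose name starts with Rpl or Rps and a digit, plus Rplp0, Rplp1, Rplp2 and Rpsa, without the S6 kinases and without pseudogenes. This gave 86 of the 32285 genes in the files, 52 of the large and 34 of the small ribosomal subunit by their names. Names alone took in Rps19bp1, a nucleolar protein that binds Rps19, and Rpl7l1, a relative of Rpl7, which are not known as core parts of the ribosome. Of the 86 members, 83 had a mean of at least 5 CPM (UMIs per 1000000 UMIs of the summed cells, a UMI being the barcode by which copies of the same captured RNA are counted once) over the libraries.

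Ribosomal proteins hold the ribosomal RNA in shape, line the paths of the mRNA and of the new protein chain, and dock the translation factors. They are made in matched amounts, and their mRNAs are among the most abundant of any cell. These mRNAs begin with a C followed by a run of pyrimidines, the 5′ terminal oligopyrimidine (TOP) tract, through which the kinase mTOR controls their translation more than their amount. A UMI count therefore measures how much of the mRNA was present and not how much of it was translated.

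The data were 3 droplet libraries of 3′ ends, 1 per group, from wild-type (WT) C57BL/6 mice. The control group was given PBS by the tail vein and taken after 6 h. The other groups were given 200000 B16-F10 cells, a mouse melanoma line that lodges in lung capillaries, and were taken after 6 h or 30 h. Lungs were digested with collagenase and sorted for cells with Pecam1 and without Ptprc on their surface. Each library pooled animals, and the labels and the study's methods give different numbers of them. Labelled melanoma cells were collected from the injected lungs as well, and the cell type label names them for the 6 h library. No 30 h library of mice given PBS was analysed here, so time and treatment cannot be told apart at 30 h. With 1 library per group, no difference has a replicate check and none was tested. The intervals in brackets are 95% intervals that cover counting error only.

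The libraries held between 124085451 and 140601123 UMIs. ECs were the barcodes with 1000 to 5000 genes, under 20% mitochondrial UMIs and at least 2 UMIs of the endothelial genes Pecam1 and Cdh5: 11231 in control, 10583 at 6 h and 9278 at 30 h, with median depths of 7782, 8033 and 8676 UMIs. Cldn5, an endothelial junction gene that the rule did not use, stood between 1956 and 2611 CPM, and Ptprc, the leukocyte gene used against leukocytes in the sort, between 3.16 and 6.53 CPM. Between 22 and 38 EC barcodes were shared by any pair of libraries. The 30 h library stood apart in several measures. Gene models that can hold reads of ribosomal RNA made up 2.44% of its EC UMIs against 0.596% in control and 0.757% at 6 h. Its gCap-like and aCap-like cells lay mostly in clusters of their own: 4245 of 4725 gCap-like cells and 1129 of 1189 aCap-like cells at 30 h were in clusters that held few cells of the other libraries.

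The letters around the annotated start were searched for the tract. The RefSeq promoter table of GRCm38.p6, the assembly of mm10, held 66 of the 86 members. A C followed by at least 4 pyrimidines (C or T, read on the strand of the gene) began exactly at the annotated start in 14 of these 66 genes, 21.2%, against 3.01% of all 27025 genes in the table. Within 5 bases on either side of the start it was present in 30 members, 45.5%, against 21.2% of all genes. Annotated starts can miss the true first base, so a missing match says only that these letters are not in the window. Windows of 30 bases are given below, 15 before the start and 15 from the start on, with the tract in capitals. Rpl35, Rpl38, Rps28 and Rps21 are shown because they were the highest members at 30 h with an entry in the table, Rps27 and Rps27rt because they are copies of 1 sequence, and Rps6 because it was the lowest in aCap-like against gCap-like cells.
Rpl35 (chr2:39005117-39005146, minus strand): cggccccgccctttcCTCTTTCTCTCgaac
Rpl38 (chr11:114668565-114668594, plus strand): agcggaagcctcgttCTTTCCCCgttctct
Rps28 (chr17:33824548-33824577, minus strand): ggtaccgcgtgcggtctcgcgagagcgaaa
Rps21 (chr2:180257364-180257393, plus strand): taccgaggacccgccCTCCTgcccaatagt
Rps27 (chr3:90213634-90213663, minus strand): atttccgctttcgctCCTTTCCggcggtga
Rps27rt (chr9:114982725-114982754, minus strand): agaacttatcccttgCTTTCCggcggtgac
Rps6 (chr4:86857353-86857382, minus strand): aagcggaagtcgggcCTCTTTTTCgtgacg
Rps28 has no such tract in its window, and a further annotated start of Rps21 has none either. In the other windows the capitals begin at the sixteenth base, which is the annotated start. The windows are examples and do not give the share of members with a tract. The ratios differed little with the tract. The median log2 ratio of 30 h to control was 0.16 over the 30 members with the tract within 5 bases and 0.14 over the 33 expressed members of the table without it.

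Ribosomal protein mRNA made up 8.001% of EC UMIs in control [7.996 to 8.007]. It made up 7.81% in the 6 h library [7.81 to 7.82] and 8.93% in the 30 h library [8.92 to 8.93]. Both injected groups were set against the same control. The share was slightly lower at 6 h, at 0.977 times control, and higher at 30 h, at 1.116 times control and 1.142 times the 6 h library. Both subunits took part at 30 h. The large subunit was at 4.54%, 4.43% and 5.01% in control, at 6 h and at 30 h, and the small subunit at 3.46%, 3.38% and 3.92%. The small subunit was at 1.132 times control at 30 h and the large subunit at 1.103 times.

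The median cell gave the same order, with 7.77% in control, 7.59% at 6 h and 8.74% at 30 h. The middle 50% of cells spanned 5.93% to 9.93%, 5.90% to 9.58% and 6.66% to 11.3%, so cells of the 3 libraries overlapped over most of their range. Over all ECs the share was highest in the shallowest bin. Among ECs with 1000 to under 3000 UMIs the share was 11.4% in control, 11.2% at 6 h and 13.9% at 30 h, and among those with 10000 to under 15000 UMIs it was 7.59%, 7.45% and 8.52%. The 30 h library was the highest in each of the 6 depth bins. In gCap-like cells the order of the bins was the reverse at the shallow end, where those of 1000 to under 3000 UMIs had the lowest shares, 6.71% in control, 5.39% at 6 h and 6.32% at 30 h.

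One cluster of shallow cells had a high share. It was led by Ager and Cldn18, genes of the alveolar epithelium, had a median depth of 0.34 times that of all ECs, and stayed unnamed. Its ribosomal protein share was 17.99% in control, 16.1% at 6 h and 16.7% at 30 h, the highest of any group of ECs described here. The nuclear RNA Malat1 held only 0.138%, 0.124% and 0.409% of its UMIs, and mitochondrial genes held 5.36%, 4.82% and 4.81%. Whether these barcodes are whole cells was not tested. This cluster held 5.37% of the control ECs, 6.71% at 6 h and 11.4% at 30 h. Without it the EC share was 7.81%, 7.61% and 8.55%, so that 30 h stood at 1.096 times control. Markers of other cells moved too. The summed level of 5 epithelial genes in ECs was 821, 597 and 368 CPM, and that of 5 red cell genes 3249, 2119 and 829 CPM. Mitochondrial genes held 2.54%, 2.49% and 2.87% of EC UMIs and the nuclear RNA Malat1 2.92%, 2.73% and 2.64%. The part of these in the difference was not tested.

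**Figure D1:**
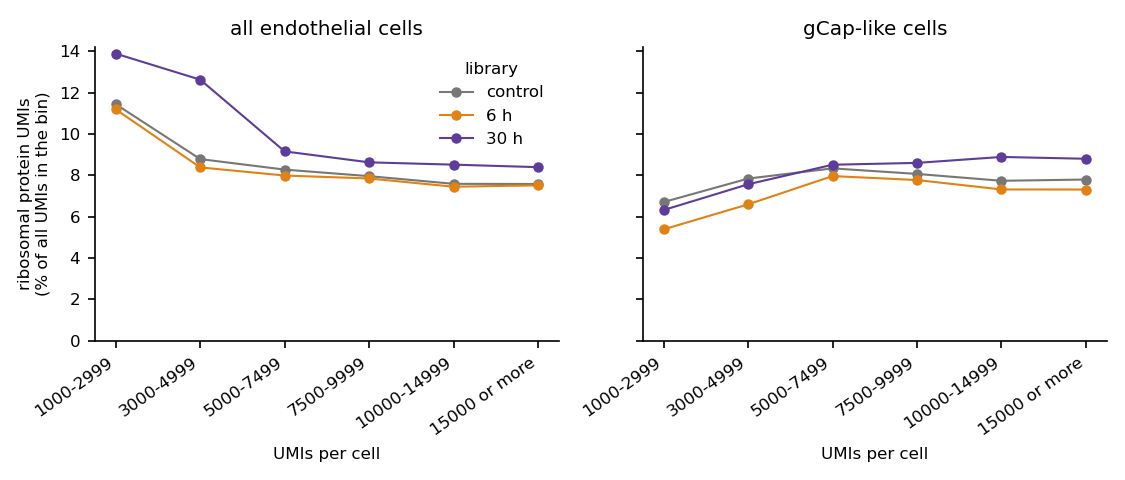
Ribosomal protein UMIs as a percentage of all UMIs (y axis) in cells binned by UMIs per cell (x axis), for all ECs (left) and gCap-like cells (right), with 1 line per library. In all ECs the 30 h line lies above the others in each bin, while in gCap-like cells it lies above control only from 5000 UMIs on.

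Between gCap-like, aCap-like and vein-like cells the class went with a larger difference than the library did. General capillary cells (gCap-like, the common cells of the capillary net) had 7.99% in control, 7.58% at 6 h and 8.68% at 30 h. Aerocytes (aCap-like, large flat capillary cells at the site of gas exchange) had 5.80%, 5.83% and 6.25%. Vein-like cells had 9.86%, 9.62% and 10.8%. Of these 3 classes the vein-like cells were thus the highest and the aCap-like cells the lowest in every library.

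Artery-like cells, with 7.61% in control, 7.62% at 6 h and 8.35% at 30 h, lay near the gCap-like cells. LEC-like cells, the lymphatic ECs, had 8.59%, 8.30% and 8.59%, from 71, 54 and 54 cells. At 30 h the ratio to control was 1.086 in gCap-like, 1.078 in aCap-like, 1.095 in vein-like and 1.097 in artery-like cells. In LEC-like cells it was 1.001, with an interval of the log2 ratio from -0.02 to 0.02. The few LEC-like cells did not move as 1 group. Their median cell was at 8.06% in control and 8.88% at 30 h, and their lower quartile at 6.17% and 4.97%. At 6 h the ratio was 0.949 in gCap-like and 0.976 in vein-like cells, 1.006 in aCap-like and 1.002 in artery-like cells. These classes leave out an unnamed cluster led by Inhbb, Tubb6 and Csf2, with 85 cells in control, 806 at 6 h and 63 at 30 h. Inhbb is among the study's markers of reactive capillary cells, which it derives from general capillary cells. The share of this cluster was not computed, so 0.949 does not cover all capillary cells of this kind. The ribosomal protein genes had been left out of the clustering, so they did not define these classes.

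**Figure D2:**
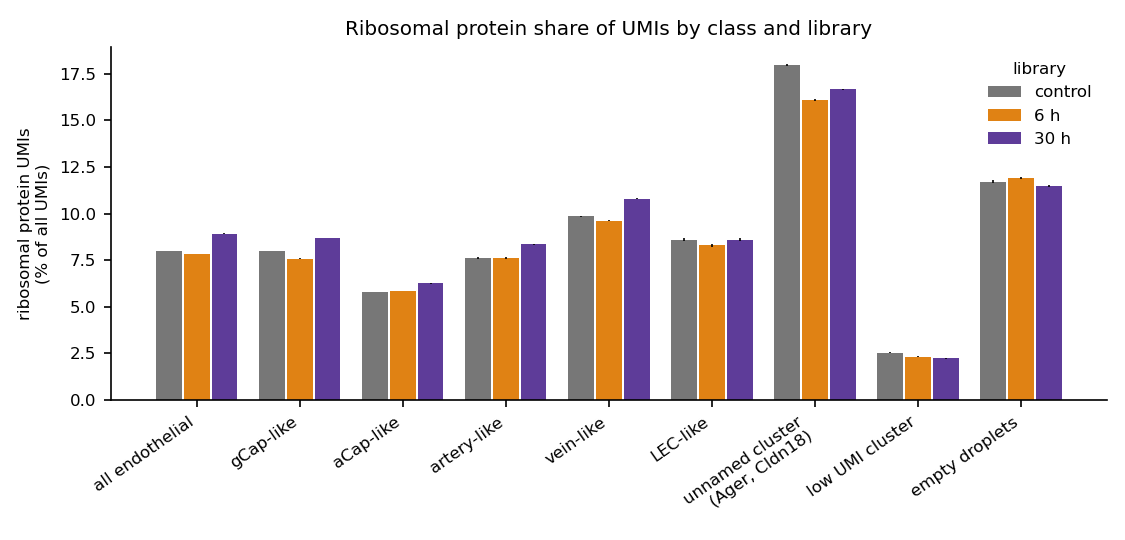
Ribosomal protein UMIs as a percentage of all UMIs (y axis) by class of cell or droplet (x axis) in the 3 libraries, with 95% counting intervals. The aCap-like cells are at 5.80% to 6.25%, the vein-like cells at 9.62% to 10.8% and the empty droplets at 11.5% to 11.9%. The low UMI cluster, which took no name, is the lowest at 2.22% to 2.53%.

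The value of the gCap-like cells at 30 h depended on how they were delimited. They came mostly from 1 cluster at 30 h, with a share of 8.72%, and mostly from the other 3 clusters in control (7.76% to 8.20%) and at 6 h (7.49% to 7.71%). The 29 control cells in the main 30 h cluster were at 9.47%. In the other 3 clusters the 30 h cells were at 7.42% (52 cells), 6.54% (91 cells) and 8.77% (337 cells). Control cells of the same clusters were at 7.82%, 8.20% and 7.76%. When each library was clustered on its own, the log2 ratio of 30 h to control turned from 0.12 to -0.12. Under that clustering 2375 of the 4725 gCap-like cells at 30 h lay in clusters that took no name, with a share of 9.72%. The name was kept by 2259, with 7.59%. Unnamed 30 h clusters of 1227 and 1121 cells scored above 0 for gCap markers (0.468 and 0.254). The naming rule left them out because markers of other classes outnumbered gCap markers among their leading genes. These were red cell genes in the former and Efnb2, listed for arteries, in the latter. Calling the cells by marker UMIs alone gave a log2 ratio of 30 h to control of 0.15. Among gCap-like cells of 3000 to under 5000 UMIs, 30 h (7.57%) lay below control (7.84%), and among those of 10000 to under 15000 UMIs above it (8.89% against 7.74%).

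Ribosomal protein RNA was also free in the suspension. Of the UMIs in droplets with 10 to 100 UMIs, 11.7% were of ribosomal protein genes in control, 11.9% at 6 h and 11.5% at 30 h. The free RNA was thus richer in it than the named EC classes, and at 30 h its share of all UMIs was lower than in control while that of the ECs was higher. Gene models that can hold reads of ribosomal RNA made up 2.345%, 3.07% and 8.42% of these droplet UMIs. The 5 red cell genes summed to 62510 CPM of the droplet UMIs in control, 40490 at 6 h and 11150 at 30 h. The 5 epithelial genes summed to 18380, 7810 and 6694 CPM. The droplet share without these models or these genes in the denominator was not computed, so the direction of its small difference is uncertain. In these droplets the median member was at a log2 ratio of -0.07 at 30 h against control, beside 0.02 for all genes.

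Single members were compared as log2 ratios of (CPM + 1). Among the most abundant by UMIs, which are 3′ counts and not divided by length, were Rps29, Rpl41, Rps24, Rplp1 and Rpl13. In control the 83 members ranged from 32.7 CPM (Rps19bp1) to 2068 CPM (Rps29), with a median of 967 CPM.

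At 6 h the family moved little. The median log2 ratio to control was -0.04 over the 83 members, between -0.26 and 0.25, beside -0.01 over all 10175 genes past the same limit. No member was higher by over 1.2-fold, where 8.94% of all genes were. Only Rps27rt was lower by over 1.2-fold, where 9.11% of all genes were. At 30 h the median against control was 0.12, between -0.09 and 0.77, beside -0.07 over all genes. Of the 83 members, 18 were higher by over 1.2-fold, or 21.7%, beside 15.5% of all genes, and none was lower, beside 25.0% of all genes. In cells of 5000 to 10000 UMIs and in ECs without the Ager and Cldn18 cluster 13 members were higher, beside 15.5% of all genes in each, so the members' share was then close to that of all genes. Against 6 h the median was 0.14 beside -0.07. In that comparison 16 members were higher, beside 16% of all genes, and none was lower, beside 22.6%. In all, 73 of 83 members were above 0 at 30 h against control, which 40.9% of all genes were.

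The 18 members held 1.48% of EC UMIs in control, 1.47% at 6 h and 1.96% at 30 h, and made up 51.4% of the difference of the family at 30 h. The other 68 members went from 6.52% in control through 6.34% to 6.97%. These 18 were picked by this same contrast, so the split is a description.

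**Figure D3:**
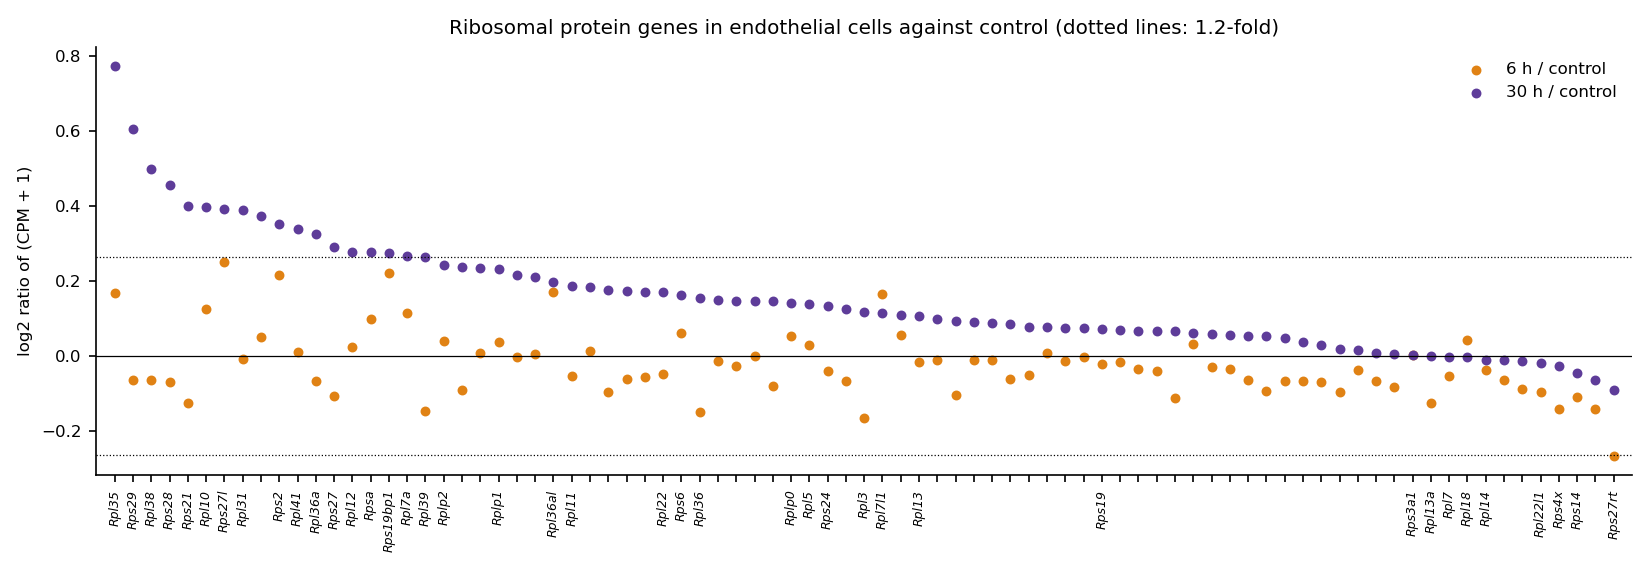
Log2 ratio of (CPM + 1) to control in ECs (y axis) for each of the 83 members (x axis, some of them labelled), ordered by the 30 h value, at 6 h (orange) and 30 h (purple), with 1.2-fold dotted. At 30 h 18 members lie above the upper line, led by Rpl35 at 0.77, and at 6 h only Rps27rt lies past a line, at -0.26.

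Among proteins of the large subunit, Rpl35, which sits at the exit of the protein tunnel, had the highest ratio at 30 h. Rpl35 (ENSMUSG00000062997; chromosome 2, 39001580 to 39005624, minus strand) was at 323 CPM in control, 363 at 6 h and 552 at 30 h. It was higher at both times, at a log2 ratio of 0.17 [0.15 to 0.19] and 0.77 [0.75 to 0.79]. Rpl38 (chromosome 11, 114668524 to 114672331, plus strand), known from the mouse mutant Tail-short, was at 1004, 962 and 1418 CPM. It was close to control at 6 h and higher only at 30 h, at 0.50 [0.48 to 0.51]. Rpl10, which joins the large subunit late in its assembly, was at 625, 681 and 823 CPM. Rpl31 was at 443, 441 and 581 CPM, level at 6 h and at 0.39 at 30 h. Rpl41, the shortest of all members with a coding length of 75 nt, was at 1896, 1912 and 2396 CPM. Rpl36a (0.32), Rpl12 (0.28), Rpl7a (0.27) and Rpl39 (0.26) completed the large-subunit members past 1.2-fold.

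Among proteins of the small subunit, Rps29, a zinc-binding protein of its head, was the highest. It was at 2068 CPM in control, 1981 at 6 h and 3145 at 30 h, a log2 ratio of -0.06 [-0.07 to -0.05] at 6 h and 0.60 [0.60 to 0.61] at 30 h. Rps28, which lies near the path of the mRNA, was at 803, 765 and 1100 CPM, and Rps21 at 1341, 1230 and 1770 CPM. These 3 were all lower at 6 h than in control and higher at 30 h. Rps2 (0.35), Rps27 (0.29) and Rpsa (0.28) were also past 1.2-fold at 30 h. Rps2, which lies at the entry of the mRNA path, differed from the former in that it was higher at 6 h as well, at 702 CPM in control, 815 at 6 h and 896 at 30 h. Rpsa, also known as the precursor of the laminin receptor, was at 762, 816 and 923 CPM.

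Members at the low end of the 30 h order stood close to control. Rps14 was at 1404 CPM in control, 1303 at 6 h and 1361 at 30 h, and Rps4x, the X-linked form of Rps4, at 1200, 1089 and 1179 CPM. Both were lowest at 6 h. Among the lowest members at 6 h besides Rps27rt were Rpl3 (608 CPM in control, 543 at 6 h and 661 at 30 h), Rpl36 (896, 809 and 998 CPM) and Rpl39 (1129, 1020 and 1356 CPM). Rpl3, Rpl36 and Rpl39 were thus below control at 6 h and above it at 30 h. Between 6 h and 30 h the smallest ratios were those of Rpl7l1 (-0.05), Rpl18 (-0.05), Rps3a1 (0.00), Rpl36al (0.02) and Rpl14 (0.03).

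The acidic proteins of the stalk, which recruit the elongation factors, kept together. Rplp0, the base of the stalk, was at 838 CPM in control, 869 at 6 h and 925 at 30 h. Rplp1 was at 1640, 1683 and 1927 CPM, and Rplp2 at 967, 994 and 1144 CPM. Their log2 ratios were 0.05, 0.04 and 0.04 at 6 h and 0.14, 0.23 and 0.24 at 30 h, so none passed 1.2-fold. Rps6, the substrate of the S6 kinases, was at 720, 751 and 806 CPM. Rpl5 and Rpl11, which with the 5S RNA can bind the p53 regulator Mdm2, were at 643, 657 and 708 CPM and at 910, 878 and 1035 CPM. These 3 were above control at 30 h by log2 ratios of 0.14 to 0.19.

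Paralogues did not follow 1 pattern. Rps27l, a relative of Rps27 that p53 induces, was at 234 CPM in control, 278 at 6 h and 307 at 30 h, and had the highest ratio of all members at 6 h, 0.25 [0.23 to 0.28]. Rps27 itself was at 1398, 1300 and 1713 CPM. Rps27rt was at 72.1, 59.8 and 67.6 CPM, but its annotated transcript and that of Rps27 were identical over all 341 aligned bases, so its count is uncertain. Rpl36al, a copy of Rpl36a, was higher at 6 h (0.17) and at 30 h (0.20), while Rpl36a was at -0.06 and 0.32. Rpl22l1, a copy of Rpl22, was at 204, 190 and 201 CPM. Rpl22 was at 633, 613 and 713 CPM.

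Rpl7l1 was at 66.7, 74.96 and 72.3 CPM and Rps19bp1 at 32.7, 38.3 and 39.8 CPM. Both were above control at each time, and Rps19bp1 passed 1.2-fold at 30 h (0.27). Rpl3l, a form known from muscle, had 6 UMIs in control, 11 at 6 h and 7 at 30 h. Rpl39l, known from testis, had 1, 4 and 9 UMIs. Rpl10l, also known from testis, had 0 in each, which allows up to 3 UMIs a library, or 0.0368 CPM in the least deep. Tissue-restricted forms were thus at or near 0 in these ECs.

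The 30 h values of the leading members were similar across classes. Rpl35 was at 0.73 in gCap-like, 0.67 in aCap-like, 0.69 in vein-like and 0.70 in artery-like cells. Rps29 was at 0.57, 0.51, 0.61 and 0.58, and Rpl38 at 0.46, 0.44, 0.45 and 0.48 in the same order. Empty droplets gave smaller values of the same sign, 0.54 for Rpl35, 0.40 for Rps29 and 0.26 for Rpl38. The leading members were therefore higher at 30 h in the free RNA too. Rpl10 (0.01) and Rps2 (0.02), by contrast, were near 0 there, beside 0.40 and 0.35 in ECs. At 6 h the droplets gave 0.25 for Rps27l, 0.38 for Rps2, 0.22 for Rpl35 and 0.16 for Rpl36al. The EC values at 6 h were 0.25, 0.215, 0.17 and 0.17. Rps19bp1 differed, at -0.17 in the droplets and 0.22 in ECs at 6 h. Higher by over 1.2-fold at 30 h against control were 14 of 83 members in gCap-like cells, beside 15.9% of all genes there, and 9 in aCap-like cells, beside 18.3%. In vein-like cells 10 were higher, beside 18.1% of all genes, and in artery-like cells 12, beside 21.6%. These shares of members were near or below those of all genes in each class. In empty droplets 5 members were higher, beside 30.9% of all genes, and 4 were lower, beside 25.0%.

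Coding length moved with the 30 h values. Of the 18 members past 1.2-fold, 11 had a coding length under 400 nt, as had 29 of the 83 members. The median log2 ratio at 30 h was 0.34 over the 11 members under 300 nt and 0.14 over the 18 members of 300 to under 400 nt. It was 0.09 over the 23 of 400 to under 500 nt, 0.07 over the 16 of 500 to under 700 nt and 0.14 over the 13 of 700 to under 1000 nt. Spearman's rho across the 83 members was -0.34, and -0.15 over the 72 members left without those under 300 nt. These are descriptions across genes of the same libraries, and genes are not replicates.

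In ECs, genes outside the family were also higher when short. The 212 other genes under 300 nt had a median of 0.26 at 30 h, those of 300 to under 400 nt 0.17, those of 400 to under 500 nt 0.09 and those of 2000 nt or more -0.16. In the bins from 300 to under 500 nt the members thus stood at or just below other genes of their length. From 700 to under 1000 nt the members (0.14) stood above the 1343 other genes (-0.02). Under 300 nt, 72.7% of the 11 members and 49.5% of the other genes were higher by over 1.2-fold at 30 h. The member median there (0.34) stood above that of the other genes (0.26). From 300 to under 700 nt the members had the lower share in each bin. From short to long it was 16.7% against 37.3%, 13.04% against 28.2% and 6.25% against 24.3%. From 700 to under 1000 nt the share of members (23.1%) was again the higher, and neither of the 2 longer members passed. In aCap-like cells the order under 300 nt turned, at 45.45% of members against 51.5% of other genes. In gCap-like cells it held, at 54.55% against 49.5%. Among the mitochondrial genes, which are no members, the short mt-Atp8 (201 nt, 1.52), mt-Nd3 (345 nt, 0.76) and mt-Nd4l (294 nt, 0.67) had the highest ratios. At 6 h the sign turned for the members, with the 11 under 300 nt at -0.09 and a rho of 0.24 over the 83. It did not turn for the other genes, with the 212 under 300 nt at 0.05 and a rho of -0.12, beside -0.28 at 30 h. In empty droplets the 11 short members were at 0.19 at 30 h and the other members at medians of -0.11 to -0.06. Other genes in these droplets were at 0.14 under 300 nt and at 0.08 at 2000 nt or more, and rho was -0.34 over the members and 0.06 over the other genes. The part of coding length in the 30 h values was not tested.

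**Figure D4:**
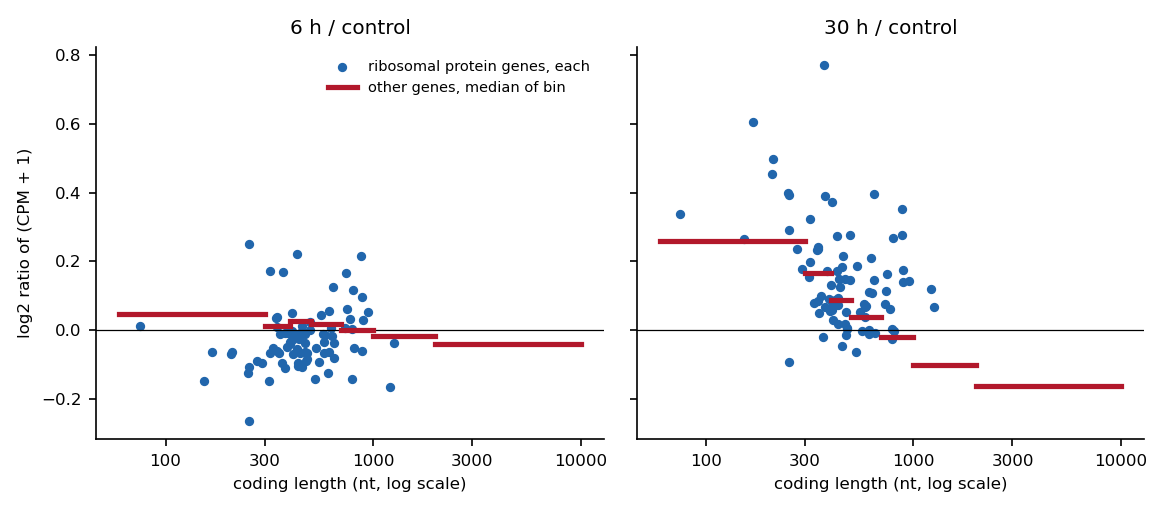
Log2 ratio of (CPM + 1) to control in ECs (y axis) against coding length in nt (x axis, log scale), at 6 h (left) and 30 h (right). Blue points are the 83 members and red bars the medians of other genes in 7 length bins, which go from 0.26 under 300 nt to -0.16 at 2000 nt or more at 30 h.

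The difference between aCap-like and gCap-like cells was shared by most of the family. In each of the 3 libraries 61 of 83 members were lower in aCap-like cells by over 1.2-fold, beside 19.8% of all genes, and 77 of 83 were lower at all. The member median was -0.47 in control, -0.39 at 6 h and -0.49 at 30 h, beside 0.01, 0.02 and -0.005 over all genes. The aCap-like cells were also deeper, with a median of 10825 UMIs against 7697 in control. Among cells of 5000 to 10000 UMIs the log2 ratio of the whole share was -0.50, -0.41 and -0.49, beside -0.46, -0.38 and -0.47 over cells of all depths. With each library clustered on its own it was -0.50, -0.39 and -0.26, so the 30 h value depended on how the classes were delimited. Under that clustering the naming rule left out a large part of the 30 h gCap-like cells, as described above.

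Rps6 was the lowest of all members by this measure. It was at 417 CPM in aCap-like and 755 in gCap-like cells in control, 435 and 761 at 6 h and 431 and 842 at 30 h. Rps24 was at 1055 and 1821 CPM in control, and Rps19, mutated in Diamond-Blackfan anaemia of humans, at 628 and 1070 CPM. Rpl13a and Rpl36a completed the lowest 5, with medians over the libraries of -0.72 and -0.69. In these 5 genes the aCap-like value was the lower in all 3 libraries.

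Few members were above 0, and most of these were paralogues or Rps19bp1. Rps19bp1 was at 44.1 CPM in aCap-like and 31.1 in gCap-like cells in control, 44.1 and 34.7 at 6 h and 46.8 and 37.5 at 30 h. Rps27l, Rpl7l1 and Rpl36al were also above 0 in all 3 libraries, by medians of 0.17, 0.08 and 0.07. Rpl31 (0.08) was the core protein among the 5 highest.

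**Figure D5:**
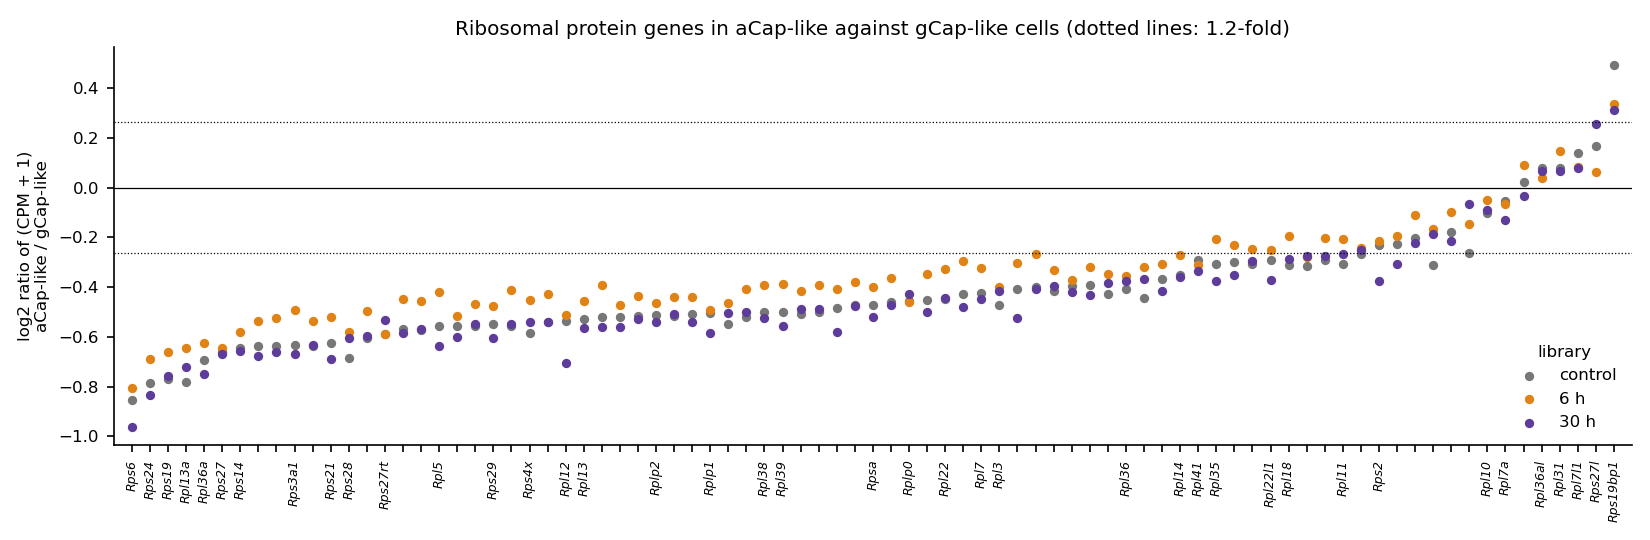
Log2 ratio of (CPM + 1) in aCap-like to gCap-like cells (y axis) for each of the 83 members (x axis, some of them labelled) in the 3 libraries, ordered by the median, with 1.2-fold dotted. Most points lie below the lower dotted line, from -0.85 for Rps6 by the median, and Rps19bp1 is the highest at 0.34.

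Vein-like cells differed the other way. There 49 of 83 members were higher than in gCap-like cells by over 1.2-fold in each library, beside 10.5% of all genes, and 80 were higher at all. The member medians were 0.30, 0.34 and 0.31, beside -0.07, -0.08 and -0.06 over all genes. The vein-like cells, too, were deeper than the gCap-like cells, with medians of 10150 and 7697 UMIs in control.

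Other genes of translation did not move as 1 block with the family. Of ribosomal proteins with other names, Fau (1737 CPM in control and 1626 at 30 h) and Rack1 (614 and 616 CPM), both of the small subunit, stayed near control. Of 17 translation factors and other genes with TOP tracts, none was higher by over 1.2-fold at 30 h, beside 15.5% of all genes, and 3 were lower, beside 25.0%. The 3 were Eef2, the translocase of elongation, with 516 CPM in control and 393 at 30 h, Eif4b (89.3 and 69.2) and Eif3f (252 and 203). The median of all 17 was -0.01, below that of the ribosomal protein genes (0.12). Their coding lengths ran from 516 nt (Tpt1) to 2574 nt (Eef2). Genes outside the family had medians of 0.04 at 500 to under 700 nt, -0.02 at 700 to under 1000 nt and -0.10 at 1000 to under 2000 nt. The part of coding length in this contrast was not tested.

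Genes of ribosome assembly had a median above 0 against control at both times. At 6 h 12 of 22 were higher than in control by over 1.2-fold, beside 8.94% of all genes, with a median of 0.28, while the ribosomal proteins were at -0.04. At 30 h 5 of 22 were higher, beside 15.5% of all genes, and 1 was lower, beside 25.0%, with a median of 0.15. Nop58, of the particles that guide RNA methylation, went from 42.4 CPM in control to 71.0 at 6 h and 55.6 at 30 h. Gnl3, or nucleostemin, went from 31.9 to 49.5 and 35.5 CPM, and Fbl, the methylase of these particles, from 38.3 to 55.0 and 42.6 CPM. Bysl, of small-subunit assembly, went from 10.7 to 16.3 and 20.6 CPM. Myc, a factor that drives this programme, was under the CPM limit on average, with 1.44, 10.3 and 1.17 CPM. In the 6 h library immediate early genes (9400 CPM summed in control, 12750 at 6 h and 6949 at 30 h) and heat shock genes (1057, 2355 and 1252 CPM) were the highest as well, and their part was not tested.

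Mitochondrial ribosomal proteins, which belong to another ribosome, had 24 of 78 genes higher by over 1.2-fold at 30 h against control, beside 15.5% of all genes, with a median of 0.14. None was lower, beside 25.0% of all genes. Among genes outside the family the share higher by over 1.2-fold went with coding length, from 49.5% under 300 nt to 8.14% at 2000 nt or more. The median 30 h ratio of genes outside the family also fell with length, to -0.10 at 1000 to under 2000 nt and -0.16 at 2000 nt or more. The mitochondrial list, and the mTOR and stress response lists that follow, were not set beside genes of like length. Of 16 genes of mTOR and TOP control 6 were lower at 30 h, beside 25.0% of all genes. Among them were Eif4ebp1, an inhibitor of translation that mTOR inactivates (63.6 CPM in control and 41.5 at 30 h), and Rps6kb1, the S6 kinase (101 and 69.8 CPM). The coding lengths of the 6 ran from 351 nt (Eif4ebp1) to 5124 nt (Rictor). Ddit4, an inhibitor of mTOR signalling, was the 1 gene of this list that was higher by over 1.2-fold at 30 h, beside 15.5% of all genes. It was at 20.3, 20.5 and 38.6 CPM. Of 12 measured genes of the integrated stress response 6 were lower at 30 h, beside the same 25.0%, among them Asns (33.7 CPM in control and 17.8 at 30 h). Of this list 1, again Ddit4, was higher, beside 15.5% of all genes. At 6 h the same list had 4 higher, beside 8.94% of all genes, and none lower, beside 9.11%, among them Atf4, its central factor, at 182 CPM in control, 229 at 6 h and 152 at 30 h.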

How the data were processed

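The members, the gene lists and the comparisons were chosen with earlier results of these data known. The authors deposited unfiltered UMI counts per gene and barcode, made with Cell Ranger 7.2.0 per the file headers and aligned to mm10. An earlier version appears in the published methods, and the treatment of intronic reads is not given in the sources used here. Barcodes were filtered by the limits given in the text, and doublets were not removed. ECs of the 3 libraries were clustered together (leidenalg, resolution 1.0, 2000 variable genes without the members, 30 components, 15 neighbours) and clusters were named from marker lists. A class needed at least 3 detected markers, and the naming limits were chosen after seeing the data. UMIs were summed per library and class. Log2 ratios used (CPM + 1) over genes of at least 5 mean CPM, and past 1.2-fold is a size and not a test. Shares have Clopper-Pearson intervals and ratios exact conditional binomial ones. Only the ratio intervals were tried, on simulated counts with counting error alone. Those counts had no spread between cells, animals or libraries, so the trial says nothing about such spread. Named were the 6 most abundant members, the 5 highest and 5 lowest of each comparison and of aCap-like against gCap-like cells, and members of special roles. Members first named within groups past 1.2-fold, and genes of other lists, were named after their values were seen. Positions and coding lengths are from GENCODE M21 (GRCm38). Results of some members and listed genes that this rule names are not reported here.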

Additional observations from a re-analysis of the deposited data

Results flagged for a closer look

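In data outside the main comparisons, the ribosomal protein share of empty droplets at 6 h, 11.9% [11.8 to 12.0], stood above that of control, 11.7% [11.7 to 11.8]. At 6 h, 31 barcodes that held 4 or more of the 8 melanoma genes listed and under 5 UMIs of Pecam1 and Cdh5 had a ribosomal protein share of 19.3% [19.2 to 19.5]. No such barcode was found in control or at 30 h.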

How the results depend on the processing

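Values below are log2 ratios of the share in ECs at 6 h against control, 30 h against control and 30 h against 6 h (main values -0.034, 0.158 and 0.192), then the same for gCap-like cells (-0.075, 0.119 and 0.194). The intervals are narrow, so most settings moved a value past its interval. Without the highest Scrublet scores they were -0.036, 0.154 and 0.190, then -0.082 and 0.113. With a floor of 300 genes and no ceiling, ECs gave -0.028, 0.170 and 0.198. With at least 5 UMIs of Pecam1 and Cdh5, ECs gave 0.151 and 0.184 at 30 h. Cells of 5000 to 10000 UMIs gave 0.122 and 0.156 at 30 h, then -0.060, 0.067 and 0.127. A denominator without mt- genes gave 0.163 and 0.198, then 0.124 and 0.20, and one without rRNA models and Malat1 gave 0.181 and 0.216, then 0.144 and 0.219. The mean of the cells' shares gave -0.041, 0.187 and 0.228, then -0.081, 0.105 and 0.185. Without the Ager and Cldn18 cluster, an alternative chosen after seeing the data, ECs gave -0.037, 0.132 and 0.169. For gCap-like cells, marker UMIs alone gave -0.062, 0.149 and 0.210, and clustering each library on its own gave -0.101, -0.119 and -0.018, which reversed both 30 h values. That clustering left 2375 of the 30 h cells unnamed.

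The aCap-like to gCap-like ratio (-0.462 in control, -0.378 at 6 h and -0.474 at 30 h) was -0.527, -0.396 and -0.523 without the highest Scrublet scores, -0.504, -0.414 and -0.493 in cells of 5000 to 10000 UMIs and -0.495, -0.388 and -0.260 with libraries clustered alone. Of counts past the fold, 1.5-fold left 2 members higher at 30 h against control (4.24% of all genes) and 2 against 6 h (4.69%), and 0 lower at 6 h (1.14%). Centring on the median of all genes gave 29 members higher at 30 h against 6 h and 25 against control (20.4% of all genes in each). At 6 h against control it gave 1 higher (9.77% of all genes) and 0 lower (8.22%). The 1 member lower at 6 h, Rps27rt, lost this (0 members) without the highest Scrublet scores, with at least 300 genes, under 10% mt- UMIs and in cells of 5000 to 10000 UMIs. Of all genes, 9.06% to 10.0% were lower at 6 h in these settings. The 18 members higher at 30 h stayed above 0 under each of 11 settings. They were picked by this same contrast in the same or overlapping cells, so their sign under these settings is no independent check. Of them 13 were still past 1.2-fold in cells of 5000 to 10000 UMIs and 13 without the Ager and Cldn18 cluster, beside 15.5% of all genes in each. No paired analysis was possible because each group had 1 library and no result came from a test. Ratios of members under about 10 UMIs are limited by depth.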
